A study of Mus musculus with 12 samples.

Results

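The SPARC family of matricellular proteins was described in primary mouse oligodendrocytes (OLs) in which Egr2, a zinc finger transcription factor known for its role in myelination, was targeted by RNA interference. The 8 members Sparc, Sparcl1, Spock1, Spock2, Spock3, Smoc1, Smoc2 and Fstl1 were taken by their symbols from the 56860 named genes of the count table. OLs were cultured from the cortex of newborn C57BL/6J mice after selection on anti-O4 beads, and the labels give the medial prefrontal cortex as the source. After differentiation the cells received siEgr2 or a scrambled control (siNC), with 6 libraries in each group and RNA taken at 48 h, and no allele is given for either group. According to the methods, cells of both groups had been expanded with PDGF-AA and matured with insulin, triiodothyronine and ciliary neurotrophic factor. Nothing states that the libraries came from separate cultures or litters, so the errors measure the spread between these libraries, which may be technical. The family was chosen by its values in this same comparison of siEgr2 with siNC, so the differences of its members between siEgr2 and siNC are given as a description, without p-values.

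SPARC family proteins are secreted and share a follistatin-like domain and an extracellular calcium-binding domain. They act on the contact between cells and matrix rather than as structural fibers. Sparc binds collagens and weakens cell adhesion, whereas Sparcl1 (hevin) is known as an astrocyte product that promotes excitatory synapses, an activity that Sparc opposes. The testicans Spock1, Spock2 and Spock3 are proteoglycans that act on metalloproteinases and cathepsins, Smoc1 and Smoc2 modulate bone morphogenetic protein (BMP) signaling, and Fstl1 is a follistatin-like glycoprotein that binds BMP ligands.

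The siNC libraries held 28682946 to 39383014 counts on genes and the siEgr2 libraries 8034251 to 16683677, without overlap. The 18S ribosomal RNA gene took 0.142% to 1.05% of the counts in siNC and 10.5% to 16.5% in siEgr2, so depth and ribosomal share cannot be told apart from the treatment. Egr2 itself was measured at 5.35 ± 1.27 CPM (counts scaled to the library total) in siNC and 3.77 ± 1.01 in siEgr2 (SD, n = 6), ranging from 3.89 to 7.06 and from 2.22 to 4.86. Its log2 fold change was -0.51 (SE 0.21), and the quasi-likelihood test of edgeR gave an adjusted p of 0.0981. An exact permutation test of the 12 libraries, two-sided, gave p = 0.0433. Egr2 therefore did not pass the threshold for all genes, and its groups overlapped. All CPM values are on the scale of TMM, a normalization that sets the bulk of genes equal between libraries.

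In siEgr2, 3 members were lower at the thresholds of the study (log2 fold change beyond 0.5 in size, with an adjusted p under 0.05): Sparcl1, Sparc and Fstl1. No member was called higher. Of the 8 members 7 had enough counts to be tested, and Spock3 did not. Among all 16600 genes tested, 5.08% were called lower and 2.63% higher, 7.72% in all. The same 3 members lay below siNC without overlap between the groups, Spock2 lay above without overlap, and Smoc1, Smoc2 and Spock1 overlapped. Of all genes tested, 7% lay below and 4.15% above without overlap. The median log2 fold change of the 7 tested members was -0.33, beside 0.0046 over all genes tested.

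**Figure D1:**
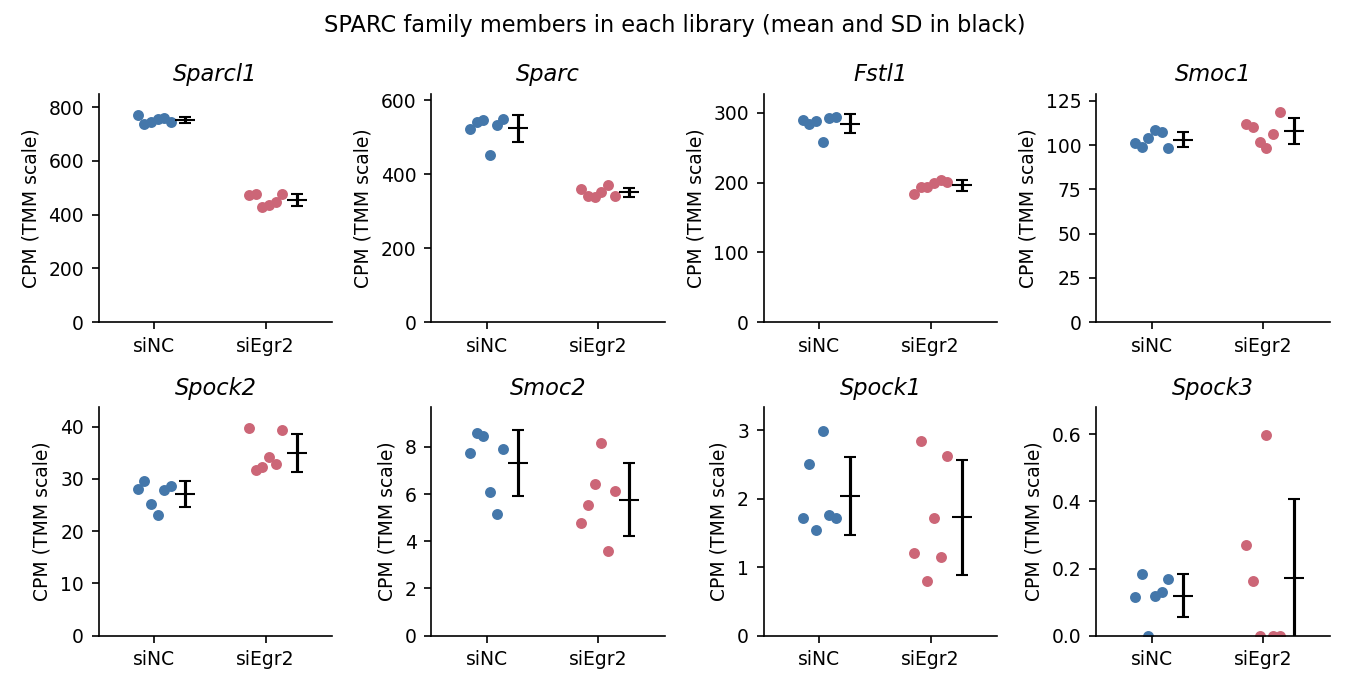
CPM on the TMM scale (vertical axes, each from 0) of the 8 members in each of 6 siNC and 6 siEgr2 libraries (points), with the mean and SD beside them in black. Every siEgr2 library lies below every siNC library for Sparcl1, Sparc and Fstl1, and above for Spock2.

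Sparcl1 was the most abundant member. It lies on chromosome 5 from 104079111 to 104113733 on the minus strand (GRCm38, GENCODE M21), with 11 exons in its longest transcript. Its CPM ranged from 738 to 770 in siNC (median 749) and from 429 to 475 in siEgr2 (median 459). The 6 siNC libraries were tightly grouped, with a coefficient of variation of 1.61%, and all 6 siEgr2 libraries were below them. The log2 fold change was -0.72 (SE 0.033, 95% interval -0.79 to -0.65), a level of 0.606 times that in siNC. By mean level Sparcl1 ranked 130 among the 16600 genes tested.

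Sparc, which binds collagen and counters adhesion, lies on chromosome 11 from 55394500 to 55423183 on the minus strand and has 9 annotated transcripts. Its CPM ranged from 451 to 550 in siNC (median 536) and from 339 to 372 in siEgr2 (median 346). The lowest siNC value belonged to replicate 4, and the other 5 siNC libraries lay between 521 and 550. All siEgr2 libraries were below this lowest value. The log2 fold change was -0.58 (SE 0.046, 95% interval -0.68 to -0.48) and it was -0.62 without siNC replicate 4.

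Fstl1, the follistatin-like member, lies on chromosome 16 from 37776873 to 37836514 on the plus strand, with 11 exons in its longest transcript. Its CPM ranged from 258 to 294 in siNC (median 289) and from 184 to 204 in siEgr2 (median 197). As for Sparc, the lowest siNC library was replicate 4, the others lay between 285 and 294, and the groups did not overlap. The log2 fold change was -0.54 (SE 0.039, 95% interval -0.62 to -0.45), close to the fold threshold of 0.5. Without siNC replicate 4 it was -0.56.

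Spock2, a testican, was the member that was higher in siEgr2. It lies on chromosome 10 from 60106219 to 60135198 on the plus strand. Its CPM ranged from 23.1 to 29.7 in siNC (median 27.9) and from 31.7 to 39.7 in siEgr2 (median 33.5). The lowest siEgr2 library was above the highest siNC library. The log2 fold change of 0.37 (SE 0.081, 95% interval 0.20 to 0.54) did not reach the fold threshold, so Spock2 was not called, although it passed the adjusted p alone, as did 19.9% of all genes tested. Scaled by library size only, its log2 fold change was 0.18 and it no longer passed. Sparcl1, Sparc and Fstl1 also passed the adjusted p alone, which makes 4 of the 7 tested members.

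Promoter windows from RefSeq (250 bases before to 50 after the start) are shown for Sparc and Fstl1, which were lower in siEgr2, and for Spock2, which was higher. They are written 5′ to 3′ on the gene's strand (GRCm38.p6), and capitals mark GGGCGG, the GC box bound by Sp1, on either strand. The Sparc window is chr11:55420031-55420330, the Fstl1 window chr16:37776805-37777104 and the Spock2 window chr10:60106007-60106306.
Sparc: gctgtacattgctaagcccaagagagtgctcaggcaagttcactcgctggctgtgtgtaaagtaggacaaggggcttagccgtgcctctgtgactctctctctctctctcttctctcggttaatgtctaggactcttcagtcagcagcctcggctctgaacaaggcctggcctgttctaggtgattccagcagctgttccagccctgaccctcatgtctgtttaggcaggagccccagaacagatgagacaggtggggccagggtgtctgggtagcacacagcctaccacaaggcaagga
Fstl1: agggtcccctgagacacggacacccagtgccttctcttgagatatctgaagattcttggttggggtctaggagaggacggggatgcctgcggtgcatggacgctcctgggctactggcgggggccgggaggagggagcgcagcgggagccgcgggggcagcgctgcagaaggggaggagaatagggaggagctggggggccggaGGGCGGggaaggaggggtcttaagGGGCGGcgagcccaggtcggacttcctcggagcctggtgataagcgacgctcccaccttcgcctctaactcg
Spock2: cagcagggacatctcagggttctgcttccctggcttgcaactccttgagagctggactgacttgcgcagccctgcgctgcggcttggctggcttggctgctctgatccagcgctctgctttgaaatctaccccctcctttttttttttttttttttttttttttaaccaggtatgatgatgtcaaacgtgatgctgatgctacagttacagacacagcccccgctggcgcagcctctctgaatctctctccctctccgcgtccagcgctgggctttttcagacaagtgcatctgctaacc

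The Sparc start in this table lies inside the GENCODE gene, and 1 of the 9 annotated Sparc transcripts starts within 50 bases of it. Fstl1 held 2 GC boxes, both upstream of the start, and Sparc and Spock2 held none. GGGCGG was present in 35.7% of 32851 promoter windows. Of the 5 members with a window (Spock3 has 2), Spock1 held 1 GC box and 1 AP-1 motif (TGANTCA, 7.81% of windows). The consensus of the Egr family, GCGNGGGCG, was present in 5.55% of all windows and the TATA box, TATAAA, in 13.6%. Neither occurred in the windows of the members on either strand. GC content was 66.7% for Fstl1, 55.3% for Sparc and 52.3% for Spock2, where the median of all windows was 52.7%. These matches describe the letters of the windows and not binding. Sparcl1, Smoc1 and Smoc2 were matched to no window.

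Smoc1, a calcium-binding modulator of BMP signaling on chromosome 12 from 81026808 to 81186414, showed no difference beyond the spread between libraries. Its CPM ranged from 98.3 to 109 in siNC (median 103) and from 98.6 to 119 in siEgr2 (median 108). The groups overlapped, and the log2 fold change was 0.063 (SE 0.049). Its 95% interval was -0.041 to 0.17, given as a description like the other member values. Its direction depended on the scaling: scaled by library size alone, which moved the median of all genes from 0.0046 to -0.18, the value was -0.12.

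Smoc2 and Spock1 were low, and their intervals were wide. Smoc2, on chromosome 17 from 14279506 to 14404790, ranged from 5.14 to 8.58 CPM in siNC (median 7.84) and from 3.59 to 8.15 in siEgr2 (median 5.84). Its groups overlapped, and its log2 fold change was -0.33 (SE 0.18, 95% interval -0.72 to 0.052). Spock1, a testican on chromosome 13 from 57421195 to 57908332, ranged from 1.55 to 2.99 CPM in siNC (median 1.75) and from 0.803 to 2.85 in siEgr2 (median 1.46). Its log2 fold change was -0.25 (SE 0.31, 95% interval -0.91 to 0.41), an interval that holds both a fall as large as that of Sparcl1 and a rise like that of Spock2.

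Spock3, on chromosome 8 from 62951009 to 63357103, was near the limit of detection. It had 25 counts over the 6 siNC libraries, with 0 to 7 per library, and 14 over the siEgr2 libraries, with 0 to 8 per library. It was at 0 in 1 siNC library and in 3 siEgr2 libraries. A count of 0 allows up to 3 counts, or 0.0967 CPM in that siNC library, and covers counting error only. No fold change is given.

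**Figure D2:**
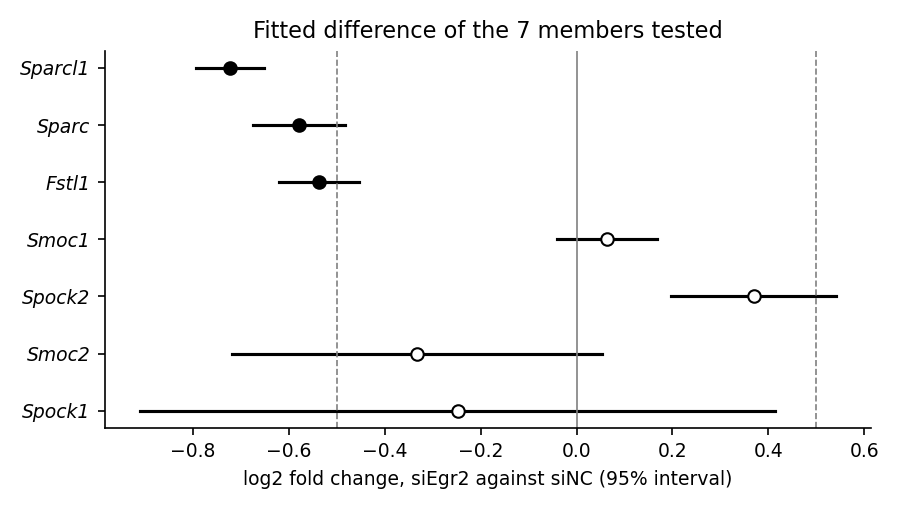
Log2 fold change of siEgr2 against siNC (horizontal axis) with its 95% interval for the 7 members tested, filled where the member was called. Dashed lines mark the fold threshold of 0.5 in each direction, and Sparcl1, Sparc and Fstl1 lie beyond it on the lower side, with intervals of Sparc and Fstl1 that cross it.

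Members were compared with each other per kilobase of annotated exon, since longer transcripts give more reads. In siNC the order was Sparcl1 at 256 ± 4.11 CPM per kb, Sparc at 138 ± 9.84, Fstl1 at 57.9 ± 2.72 and Smoc1 at 29.5 ± 1.25 (SD, n = 6). Spock2 followed at 4.89 ± 0.443, Smoc2 at 1.05 ± 0.20, Spock1 at 0.244 ± 0.0683 and Spock3 at 0.0197 ± 0.0107. No neighbors in this order overlapped in siNC. The order was the same in siEgr2, where Sparcl1 was at 155 ± 7.39 CPM per kb and Spock2 at 6.32 ± 0.648, and where Spock1 and Spock3 overlapped. It was also the same when the longest transcript gave the length, although the level of Sparc in siNC was then 228 CPM per kb.

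**Figure D3:**
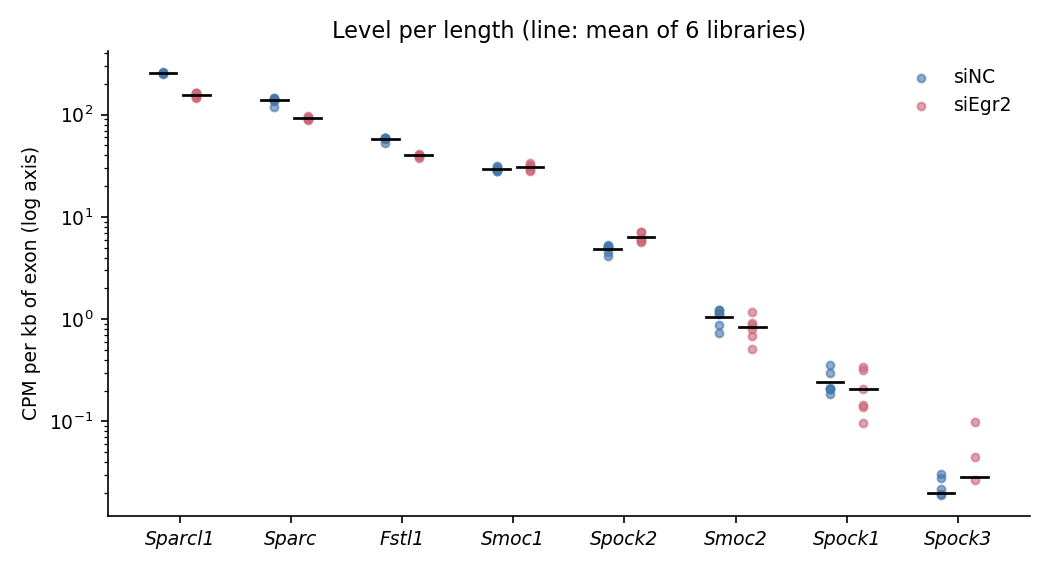
CPM per kb of exon (log axis) of each member in siNC and siEgr2 libraries (points), with the mean of 6 libraries as a line. Libraries at 0 (1 siNC and 3 siEgr2 for Spock3) are not drawn but enter the mean, and the order of members is the same in both groups.

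The family summed to 488 ± 11.6 CPM per kb in siNC and 326 ± 9.58 in siEgr2. Sparcl1, Sparc and Fstl1 together made up 92.1% to 93.0% of this sum in siNC and 87.4% to 88.7% in siEgr2. Smoc1 made up 6.05% of it in siNC and 9.47% in siEgr2, and Spock2 1.0% and 1.94%.

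Ratios between members within a library do not depend on the scaling, but their size depends on the lengths used. Per length, the ratio of Sparc to Spock2 was 28.3 ± 1.79 in siNC and 14.8 ± 1.5 in siEgr2, without overlap. This follows from every siEgr2 library being lower for Sparc and higher for Spock2, and adds nothing to those differences. For Sparcl1 to Smoc1 the ratio was 8.68 ± 0.340 and 5.03 ± 0.161, also without overlap. Both ratios use values by which the family was chosen. The ratio of Sparc to Fstl1 was 2.39 ± 0.0793 and 2.32 ± 0.115, and the groups overlapped. That of Sparcl1 to Sparc was 1.86 ± 0.159 and 1.68 ± 0.104, also with overlap.

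The culture also held transcripts of other cell types. In bulk RNA, fewer cells of a type and less RNA per cell cannot be told apart. The 9 astrocyte markers summed to 8245 to 8946 CPM in siNC and to 5293 to 5976 in siEgr2, without overlap. Of these, 5 were called lower (Gfap, Aqp4, Aldh1l1, Slc1a3 and Slc1a2, named after their values were seen), none was at 0, and the median log2 fold change was -0.60. For these and the other marker lists, the counts stand beside the 5.08% of all tested genes called lower and the 2.63% called higher. Gfap, the astrocyte filament protein, was the most abundant at 4777 ± 205 CPM in siNC and 3242 ± 152 in siEgr2, although the cells had been selected for O4. The paper reports the opposite direction for Gfap by qPCR, with a higher level in siEgr2 OLs.

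Set against the astrocyte marker sum of the same library, Sparc was at 6.06% ± 0.529 in siNC and 6.15% ± 0.330 in siEgr2, with overlap. Fstl1 was at 3.29% ± 0.185 and 3.44% ± 0.183, also with overlap. Sparcl1 was at 8.70% ± 0.159 and 7.98% ± 0.236, without overlap. Gfap makes up most of this sum, and 3 other called markers had log2 fold changes at or below that of Sparcl1 (Slc1a3 -0.85, Aqp4 -0.80 and Aldh1l1 -0.74), so Sparcl1 was lower relative to the sum but not relative to each marker. Smoc1 was at 1.19% ± 0.0466 of this sum in siNC and 1.89% ± 0.0919 in siEgr2, and Spock2 at 0.313% ± 0.0321 and 0.612% ± 0.0542, both higher without overlap. For Spock2 this follows from Spock2 itself being higher and the astrocyte sum lower in siEgr2, each without overlap. The part of astrocyte RNA in the values of the members was not tested.

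The 7 precursor markers summed to 4493 to 4679 CPM in siNC and 5430 to 5576 in siEgr2, with Pdgfra and Cspg4 called higher (named after their values were seen), Olig1 the most abundant and none at 0. Relative to this sum, Spock2 was at 0.588% ± 0.0531 in siNC and 0.638% ± 0.0671 in siEgr2, and Smoc1 at 2.24% ± 0.0958 and 1.97% ± 0.149, each with overlap. Sparc, at 11.4% ± 0.909 and 6.39% ± 0.240 of the precursor sum, did not overlap. This follows from Sparc being lower and the precursor sum higher in siEgr2, each without overlap. The 9 myelinating markers summed to 7846 to 8911 CPM and 7326 to 7643, without overlap. None was called or at 0, and their median log2 fold change was -0.19. Relative to the myelinating sum, Spock2 was at 0.325% ± 0.0253 in siNC and 0.468% ± 0.0496 in siEgr2, without overlap. That likewise follows from Spock2 being higher and the sum lower.

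The 9 fibroblast and pericyte markers, led by Col1a1, summed to 814 to 1359 CPM in siNC and 837 to 1031 in siEgr2, with overlap, and 2 of the 7 tested were called lower (Pdgfrb and Rgs5, the latter with overlapping groups, named after their values were seen). Ependymal markers, led by Foxj1, summed to 64.4 to 83.9 and 48.7 to 62.3 CPM, without overlap. None of them was called, and their median log2 fold change was -0.50. Microglial markers summed to 25.5 to 31.0 and 21.4 to 32.7 CPM, with Aif1 at 0 in all libraries. Endothelial markers summed to 28.7 to 36.6 and 28.1 to 39.1 CPM, with Cldn5 at 0 and Kdr the most abundant. Neuronal markers, led by Map2, summed to 406 to 660 and 394 to 633 CPM. Of the neuronal and endothelial markers, 1 each was called lower (Stmn2 and Flt1, named after their values were seen), both with overlapping groups. The median log2 fold change was -0.019 for the neuronal and -0.29 for the endothelial markers, and both lists held genes with values above 0, such as Map2 at 0.23 and Kdr at 0.13.

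Within groups, some members varied together across the 12 libraries once each group's mean was removed. These correlations use log2 of CPM plus 0.5 and are given as a description, from 21 pairs of members and 56 pairs of a member and a marker sum. Over the 21 pairs of members, r ranged from -0.49 to 0.78 with a median of 0.11. Sparcl1 and Smoc1 gave r = 0.78 (Spearman's rho 0.76), between 0.72 and 0.84 with 1 library left out, and 0.79 without the 2 libraries farthest from the median of Sparcl1. By group, r was 0.38 over the 6 siNC libraries and 0.89 over the 6 siEgr2 libraries. Sparc and Fstl1 gave r = 0.71 (rho 0.56), but 0.12 without siNC replicate 4 and -0.41 without the 2 farthest libraries, so this relation rests on that library.

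Sparcl1 followed the astrocyte marker sum within groups with r = 0.77 (rho 0.78, and 0.63 without the 2 farthest libraries). Smoc1 followed it with r = 0.60 (rho 0.69, and 0.66 without the 2 farthest). Sparcl1 also gave r = 0.67 with the ependymal sum and -0.57 with the microglial sum, and Spock1 gave 0.53 with the astrocyte sum. Sparc and Fstl1, whose shares of the astrocyte sum overlapped between the groups, gave r of -0.16 and 0.057 with that sum within groups. Sparc and the fibroblast and pericyte sum gave r = 0.73 (rho 0.50), and Fstl1 and that sum r = 0.71 (rho 0.64). Without the 2 farthest libraries these were 0.11 and 0.17, and without siNC replicate 4 alone they were 0.35 and 0.38. By group, r for Sparc was 0.83 over the siNC libraries and 0.30 over the siEgr2 libraries, and for Fstl1 0.67 and 0.88. The fibroblast and pericyte sum of siNC replicate 4, 814 CPM, was the lowest of the siNC libraries, and its astrocyte sum of 8716 CPM lay within their range.

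By the same measure, searched over 12399 genes (12400 for Spock1), the genes most like each member were Gps1 and Scnm1 for Sparcl1 (r of 0.92 for each). For Sparc they were Trip10 at 0.91 and Slc35a2 at 0.90, and for Fstl1 Rims1 at 0.92 and Hopx at 0.91. Smoc1 was most like Gm2223 at 0.92 and Vdac3-ps1 at 0.89, and Smoc2 most like Arih1 at 0.91 and Cplane1 at 0.90. Spock1 was most like Fam241b at 0.95 and Pstk at 0.91, and Spock2 most like Tlcd4 at 0.90 and Dnajc28 at 0.86. These genes are the best of all those searched, and no test was made of how high r would be by chance.

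Genes that act with the family were counted in 7 related lists, which were written with earlier results of these data known. Their counts stand beside 5.08% of all tested genes called lower and 2.63% called higher, and nothing particular to a list is read from them. The 7 collagens bound by Sparc had 1 member called lower and a median log2 fold change of -0.37. It was Col5a2, a fibril-forming chain, at 163 ± 19.8 CPM in siNC and 111 ± 6.26 in siEgr2 (log2 fold change -0.55, SE 0.070). Of the 10 receptors and cell surface partners, 9 were tested, 2 were called lower and the median was -0.12. Vcam1, an adhesion molecule, was at 87.2 ± 7.67 and 34.9 ± 2.66 CPM (-1.32, SE 0.069), and the integrin subunit Itgb5 at 69.3 ± 7.58 and 43.1 ± 4.56 (-0.68, SE 0.082).

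The 4 astrocyte synaptogenic factors, which act at synapses as Sparcl1 does, had 2 called lower and a median of -0.63. Thrombospondin 2 (Thbs2) was at 45.3 ± 8.68 CPM in siNC and 22.8 ± 2.42 in siEgr2 (log2 fold change -1.0, SE 0.11). The glypican Gpc4 was at 90.2 ± 8.15 and 52.4 ± 7.92 CPM (-0.78, SE 0.092).

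Of 11 proteases and inhibitors linked to the testicans, 10 were tested, 1 was called higher, 3 lower and the median was -0.39. The stromelysin Mmp3 fell from 125 ± 31.9 to 35.1 ± 3.53 CPM (-1.84, SE 0.15), and Mmp14, a membrane-bound collagenase, from 40.5 ± 7.37 to 24.2 ± 4.71 (-0.75, SE 0.14). The inhibitor Timp2 fell from 244 ± 5.54 to 170 ± 5.57 CPM (-0.52, SE 0.034), and the membrane-bound Mmp16 rose from 57.8 ± 2.94 to 81.9 ± 5.74 (0.50, SE 0.055).

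Of 16 genes of BMP signaling, the pathway that Smoc1, Smoc2 and Fstl1 modulate, 1 was called higher, 3 lower (2.63% and 5.08% of all genes tested) and the median was -0.18. Bmp7 rose from 65.2 ± 2.31 to 101 ± 5.18 CPM (0.63, SE 0.045) and Bmp6 fell from 32.5 ± 2.15 to 15.6 ± 2.92 (-1.07, SE 0.11). The inhibitory Smad6 fell by 1.13 on the log2 scale (SE 0.29), with overlapping groups, and the target Id1 fell by 0.69 (SE 0.086). Of the 4 growth factors linked to Sparc, Pdgfb was called lower at 14.3 ± 1.96 and 7.65 ± 1.53 CPM (-0.90, SE 0.14), and the list's median was -0.11. Of 8 tested follistatin-domain relatives, Wfikkn1, a low gene with overlapping groups, was called higher (1.31, SE 0.44), and the median was 0.18.

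**Figure D4:**
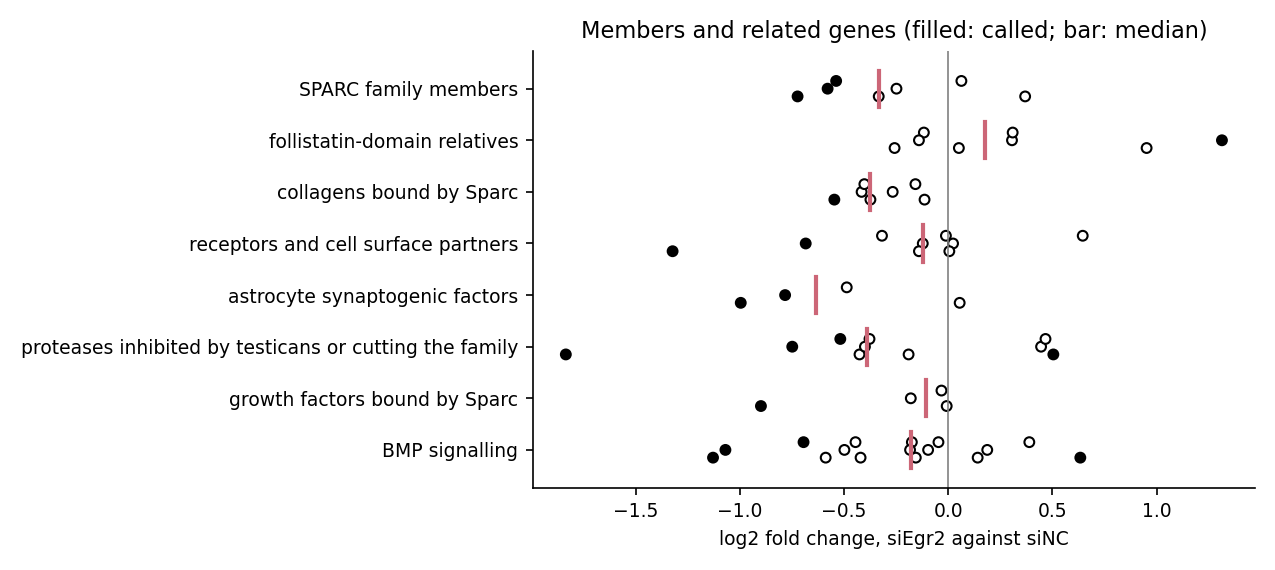
Log2 fold change of siEgr2 against siNC (horizontal axis) for the tested members and the genes of the 7 related lists (points, filled where called), with the median of each list as a bar. The bar of the members lies at -0.33 and that of the synaptogenic factors at -0.63.

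Sparcl1, Sparc and Fstl1 were called lower with each of the 12 libraries left out in turn. Their log2 fold changes then ranged from -0.74 to -0.71, from -0.62 to -0.56 and from -0.56 to -0.52. With every library thinned to the smallest total, the values were -0.72, -0.58 and -0.54, and with structural RNA genes left out they were -0.71, -0.57 and -0.53. Spock2 ranged from 0.18 to 0.41 over all alternatives.

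**Figure D5:**
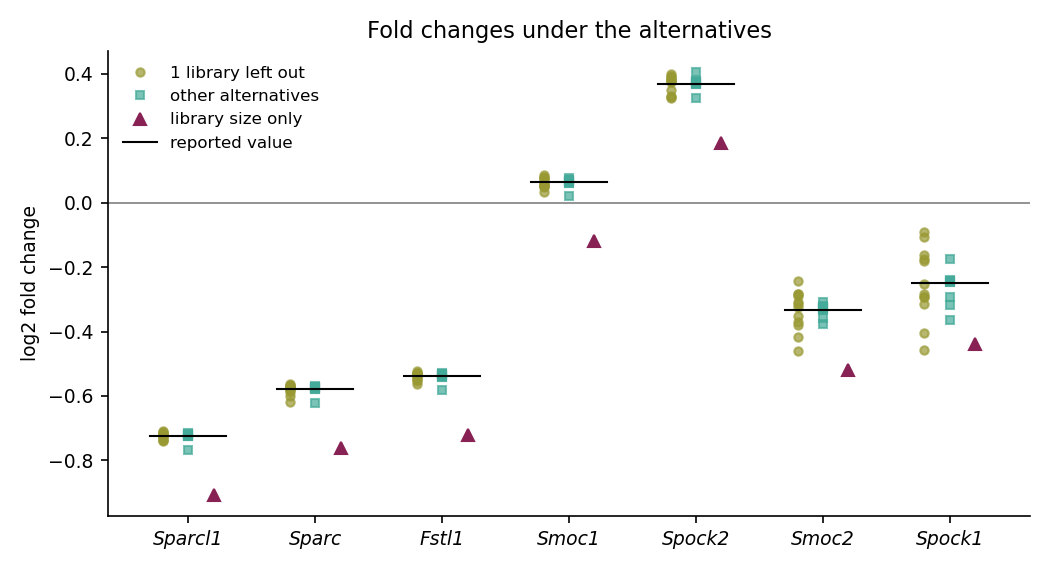
Log2 fold change (vertical axis) of each tested member with 1 library left out (circles), under other alternatives (squares) and scaled by library size only (triangles), with the reported value as a line. Scaling by library size only moves every member down and places Smoc1 below 0.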

How the data were processed

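RNA-seq libraries of primary OLs (6 siNC, 6 siEgr2) were analyzed from 1 table of raw counts per gene, which the authors deposited without normalization. Total RNA was extracted with TRIzol, and reads were 50 bp long. The submitters' processing notes name the build mm10. The aligner, the counting program and the use of strand are not given in the sources used here. One entry without a gene name was left out. Over the 30 pairs of libraries within groups, none was a copy of another.

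After filtering by filterByExpr and TMM scaling, genes were tested with the quasi-likelihood test of edgeR 4.0.16 (R 4.3.3, robust) with Benjamini-Hochberg adjustment over 16600 genes. The thresholds are those of the study, which names no test. Members and lists were chosen with earlier results of these data known. Named genes are the members, Egr2, up to 4 called genes with the largest change in each related list, the 2 most correlated genes per member, and the most abundant or absent markers, some of which are not reported here. Other called markers were named after their values were seen. Coordinates and exon lengths came from GENCODE M21 on GRCm38, in which no exon of a member overlaps another gene. Promoters came from RefSeq. On simulated counts for this comparison (16317 genes, 200 changed), 74% of genes changed by 1 and 89% of genes changed by 1.5 on the log2 scale were recovered, and 2.98% of calls were false. Both simulated sizes exceed the change of any member, the largest being -0.72 for Sparcl1, so recovery at the members' sizes was not measured. The 200 changed genes were also fewer than the 1281 genes called in these data. Alternatives were RLE, upper-quartile and library-size scaling, DESeq2 1.42.0, limma-voom 3.58.1, 2 filters, a replicate block, thinning, structural RNA left out, each library left out, other fold thresholds and the longest transcript as length.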

Additional observations from a re-analysis of the deposited data

Results flagged for a closer look

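In siNC replicate 4, Sparc was at 451 CPM where the other 5 siNC libraries lay between 521 and 550. Fstl1 was at 258 CPM in the same library, where the others lay between 285 and 294. Spock3 was at 0 CPM (0 counts) in siNC replicate 3, where the others lay between 0.116 and 0.183, or 4 to 7 counts. The 3 counts that a count of 0 allows correspond to 0.0967 CPM in that library, below the lowest of the others, and each of the others rests on 7 counts or fewer. For all 3 values the gap to the nearest library, relative to the range of the group, exceeded Dixon's 95% critical value for 6 samples. For Spock3 this holds only with 0 counts read as exactly 0 CPM. Of 18 groups examined 3 were so marked, where chance gives about 0.9.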

How the results depend on the processing

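The count of 3 members called lower was unchanged under RLE and upper-quartile scaling, DESeq2, limma-voom, both filters, thinning, structural RNA left out, each library left out and no fold threshold. It was 4 with library size only, where Smoc2 (-0.52) joined, and 0 with a log2 fold change over 1. The count called higher was 0, and 1 (Spock2) with no fold threshold. The median of the tested members was -0.52 with library size only and ranged from -0.46 to -0.24 with 1 library left out. Library size only also reversed Smoc1 to -0.12 and gave Egr2 a called value of -0.70. Under it 88.0% of called genes were lower, against 65.9%. With the replicate block 3 members were called lower, the median of the members was -0.36 and 349 genes were called higher and 775 lower. Same-numbered libraries correlated between -0.057 and 0.073, and 2 of 6 correlated best with their own number. No pairing by number was seen, which does not settle whether same-numbered libraries shared a culture or litter. With the longest transcript as length, the siNC levels of Sparcl1, Sparc, Fstl1, Smoc2, Spock1 and Spock3 were 272, 228, 75.1, 1.84, 0.442 and 0.0372 CPM per kb, in the same order. Spock3 was fitted only without the filter. Smoc2 and Spock1 varied between libraries by more than counting error (coefficients of variation of 19.0% and 28.0% in siNC, against 6.50% and 12.4% from counting), and Spock3 had too few counts. The value of Spock1 ranged from -0.46 to -0.092 with 1 library left out.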
